A study of Mus musculus with 11 samples.

Results

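The 41 genes described here encode proteins of microglia, of the complement cascade and of phagocytes that change state, and their mRNA was measured in the cerebrum of Polg mutator mice. They were taken from the gene count table by their symbols, from a list of names. All 41 were among the 36666 genes of the table, and 40 were among the 17983 genes with enough counts to be tested. Tnf was the member that was not tested.

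Polg encodes the catalytic subunit of the mitochondrial DNA polymerase, and the D257A change inactivates its proofreading activity, so that mitochondrial DNA gathers mutations in every tissue. Poly(A) RNA from frozen cerebral tissue of male mice aged 1 year, with the strain given as C57/Bl6, was sequenced. The 7 mutator mice were homozygous (D257A/D257A) and the 4 control littermates comprised 3 WT/WT mice and 1 WT/D257A mouse, mouse 237. The labels name no treatment, each library came from a separate mouse, and the mutation is a germline change that is present in all cells and not in a chosen cell type. Since D257A is a change in sequence, the amount of Polg mRNA does not check the genotypes. Polg was at 66.0 ± 3.0 CPM (counts scaled to library size, with TMM factors between mice) in the controls and at 63.9 ± 4.2 CPM in the mutators (SD, n = 4 and 7).

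Microglia are the resident macrophages of the brain. They live on signalling through the receptor Csf1r, survey their surroundings with receptors for fractalkine and nucleotides, and are the main source of C1q in the brain, while C3 and C4 can come from astrocytes and other cells as well. Deposited complement marks material for uptake through the integrin receptors of phagocytes, and in ageing or damaged tissue microglia can lower their surveying receptors and raise a set of lipid handling and lysosomal genes under the control of Trem2 and its adaptor Tyrobp. In bulk RNA, fewer cells of a type and less RNA per cell cannot be told apart.

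Libraries held between 28249345 and 121182250 gene counts in the controls and between 37821243 and 91219204 in the mutators. Control 246, the smallest library, was the highest of the 4 controls for 21 of the 40 members tested and the highest of all mice for 14. Mutator 217 was the highest of all mice for 10 members and control 237 for 9. The share of all genes for which each mouse was highest was not computed. Control 246 also held markers of monocytes and neutrophils, which summed to 43.2 CPM against 8.7 to 12.2 CPM in the other 3 controls and 15.7 to 26.4 CPM in the mutators. Without it, the members called were again C3 and C4b, but the number of members with a positive log2 fold change went from 17 to 25 of 40. Over all genes, 93 of 18328 were called in that fit, 50 as higher and 43 as lower. Results of several members and lists, but not of all that it changes, are given with and without it. The libraries were run in pools of 6, and the pool of each mouse is not given in the sources used here, so values within pools were not computed.

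Of the 40 members tested, 2 rose in the mutators at an adjusted p-value under 0.05 (Benjamini-Hochberg over all genes tested, edgeR quasi-likelihood test), and 0 fell. Over all genes, 1.24% were called, 0.439% as higher and 0.801% as lower. At an unadjusted p-value under 0.05, 5 members were higher and 6 were lower, against 7.18% and 8.58% of all genes, 15.8% in either direction. The log2 fold change was above 0 for 17 members and below 0 for 23, with a median of -0.034 over the members and of 0.0014 over all genes tested. The standard errors (SE) of the members had a median of 0.12 on the log2 scale, and the 95% confidence interval lay within 0.5 of 0 for 27 of the 40.

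**Figure D1:**
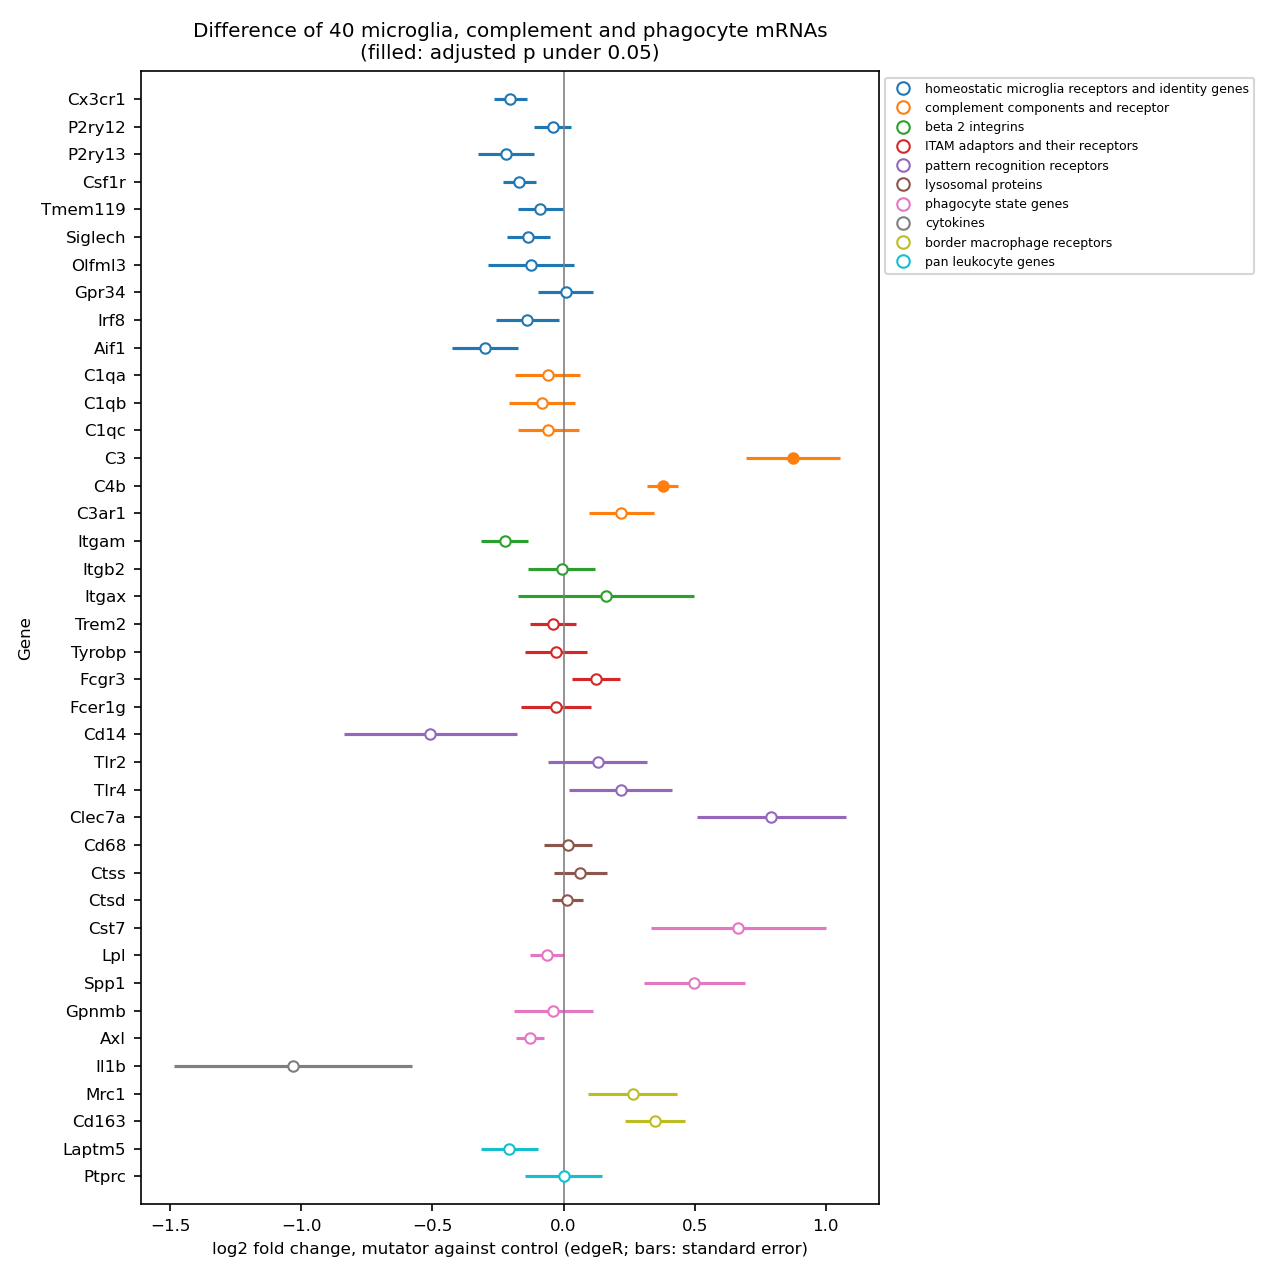
The log2 fold change of each of the 40 members tested is plotted on the x axis, with its standard error as a bar, and colours give the role of the gene. C3 at 0.87 and C4b at 0.38 are the filled points, and Il1b at -1.03 has the widest bar.

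Both members that rose belong to complement, and their levels are shown by mouse together with the other complement members. A fragment of C4b forms part of the C3 convertase of the classical pathway, and C3 is the central component that every activation route cleaves. For the C4b mRNA, control mice 205, 237, 239 and 246 had 53.6, 65.0, 54.0 and 53.6 CPM, and the 7 mutators had between 67.8 and 79.3 CPM with a median of 74.4. All mutators lay above all controls, and the WT/D257A mouse was the control nearest to them. C4b and Cd163 were the 2 members whose groups did not overlap in this direction, which held for 1.2% of all genes tested, and 0 members had every mutator below every control, against 1.42% of all genes. C4b rose from 56.5 ± 5.6 to 73.4 ± 4.1 CPM (SD, n = 4 and 7), with a log2 fold change of 0.38 (SE 0.059, edgeR adjusted p = 0.0027), which is 1.30-fold. It was called in each of the 19 alternatives, and its log2 fold change was 0.45 without the WT/D257A mouse and 0.35 without control 246 (adjusted p from 2.7e-06 to 0.020 over the alternatives).

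The C3 mRNA was far less abundant. It was at 1.57, 1.11, 1.19 and 1.71 CPM in control mice 205, 237, 239 and 246, and between 1.56 and 3.10 CPM with a median of 2.64 in the mutators. Mutator 211 was at the level of the controls, and the other 6 mutators were above every control. C3 rose from 1.39 ± 0.29 to 2.53 ± 0.51 CPM (SD, n = 4 and 7), with a log2 fold change of 0.87 (SE 0.18, edgeR adjusted p = 0.018), or 1.83-fold. These levels rest on 47 to 245 counts per mouse. The adjusted p-value was 0.117 without control 237 (log2 fold change 0.79), 0.073 without control 239 (0.80) and 0.22 with sums of exon bins for the 3 WT/WT and 7 mutator mice (0.59), and it stayed under 0.05 in the other alternatives, among them the one without control 246 (0.96).

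**Figure D2:**
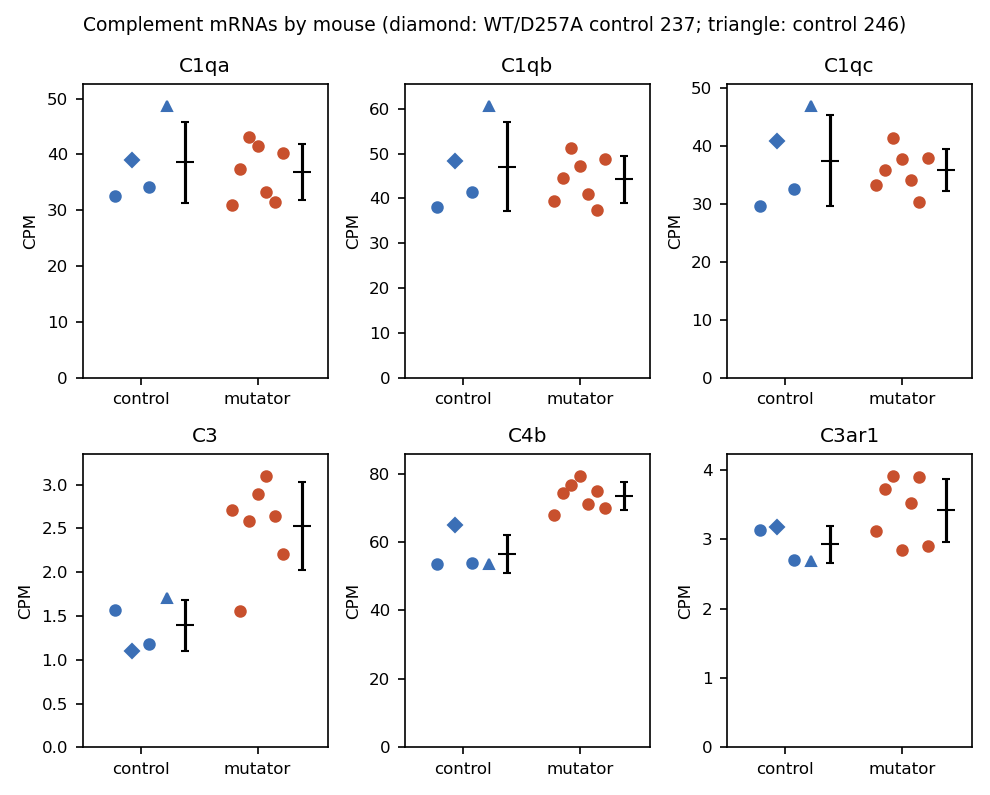
Each point is the level of a complement mRNA in 1 mouse, in CPM from 0, with the group mean and SD as a black bar beside the points. The 7 mutators sit at 67.8 to 79.3 CPM of C4b, above the controls at 53.6 to 65.0 CPM, while C1qa, C1qb and C1qc overlap between the groups and are highest in control 246.

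C1qa, C1qb and C1qc encode the chains of C1q, which starts the classical pathway on bound antibody and other targets. These genes lie side by side on chromosome 4 and were among the most abundant members per length. C1qa was at 32.6, 39.0, 34.1 and 48.6 CPM in control mice 205, 237, 239 and 246 and between 31.0 and 43.1 CPM in the mutators, with a median of 37.5. C1qb was at 38.05, 48.3, 41.4 and 60.6 CPM in the same controls and between 37.4 and 51.2 CPM (median 44.6) in the mutators. For C1qc the controls had 29.7, 40.8, 32.5 and 46.8 CPM, and the mutators 30.3 to 41.3 CPM (median 35.8). Control 246 was the highest of all mice for each of the chains, and the other controls lay within or just under the range of the mutators. None of the chains passed the test: the log2 fold changes were -0.060 for C1qa (95% confidence interval -0.33 to 0.21), -0.083 for C1qb (-0.36 to 0.19) and -0.058 for C1qc (-0.31 to 0.19), and without control 246 they were 0.065, 0.056 and 0.063.

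C3ar1, the receptor for the C3a fragment, was at 3.14, 3.18, 2.71 and 2.69 CPM in control mice 205, 237, 239 and 246 and between 2.85 and 3.91 CPM in the mutators, with a median of 3.53. Mutators 236, 249 and 207 were within the range of the controls. Its log2 fold change was 0.22 (SE 0.12, edgeR adjusted p = 0.41).

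Of 30 further complement genes fixed as a list, 24 were tested and 0 were called, with a median log2 fold change of -0.052. At an unadjusted p-value under 0.05, 2 were higher, C2 and C5ar1. C2 encodes the partner of C4b in the convertase, and its 7 mutators, at 2.86 to 4.16 CPM, were all above the controls at 1.71 to 2.85 CPM (log2 fold change 0.53, SE 0.14, edgeR adjusted p = 0.071). The receptor for C5a, C5ar1, had a log2 fold change of 0.57 (SE 0.23, adjusted p = 0.22).

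In the mm9 annotation, C3 spans bases 57343397 to 57367559 of chromosome 17 and C4b bases 34865325 to 34880827 of that chromosome, both on the minus strand. A neighbouring gene, C4a, is a near copy: 5652 of the 5695 exonic bases of C4b align to its locus, with 96.3% identity, so reads could be shared between them and the C4b counts are uncertain to that extent. C4a was counted at 1.16 to 1.40 CPM in the controls and at 1.13 to 1.37 CPM in the mutators. The counts given to C4a thus overlapped between the groups, while those given to C4b did not.

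Counts per exon bin, deposited for the 3 WT/WT controls and the 7 mutators, show where along each transcript the difference lay. The level was higher in the mutators in 41 of 41 bins of C4b, with a median log2 ratio of 0.47 and a range from 0.17 to 0.69, and in 24 of these bins every mutator was above every WT/WT control. In C3 it was higher in 38 of 41 bins, with a median of 0.43 and a range from -0.45 to 1.61, and 2 bins had no overlap. The bins of one gene share reads and mice and are not replicates. The shares of all bins that were higher, or had no overlap between the groups, were not computed. C1qa, C1qb and C1qc had medians of -0.012, -0.027 and -0.0081 over 3, 3 and 5 bins. Tested for usage against the other bins of the same gene, 0 of the 389 bins of 33 members were called by limma at an adjusted p-value under 0.05, and 3 had an unadjusted p-value under 0.05, in Cd163, Aif1 and Csf1r. No bin of C3 was among the 389, so usage within C3 was not tested in this fit. The same held for C3ar1, Itgax, Tlr4, Clec7a, Cst7, Il1b and Tnf. Of all 206930 bins tested, 0.0121% were called. edgeR's diffSpliceDGE likewise called 0 member bins, and 2 had an unadjusted p-value under 0.05.

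**Figure D3:**
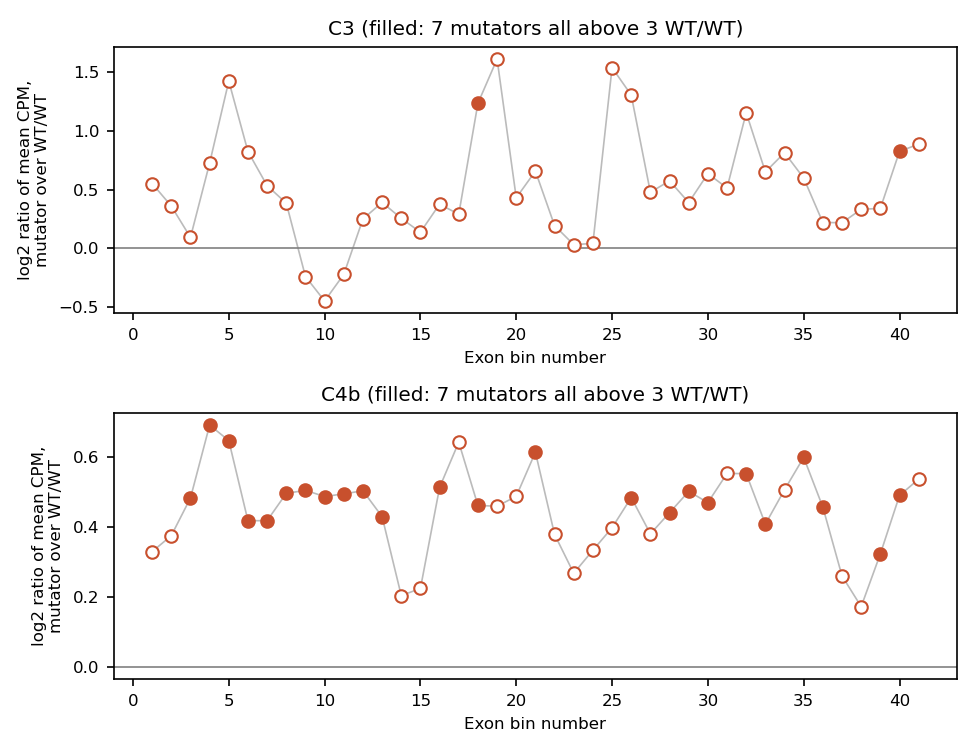
The log2 ratio of mean CPM in 7 mutators over 3 WT/WT controls is plotted for each exon bin along C3 and C4b, by bin number. All 41 points of C4b lie above 0, between 0.17 and 0.69, while those of C3, with few counts per bin, scatter from -0.45 to 1.61.

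Upstream windows were read from RefSeq on GRCm38.p6, where 31 of the members had an entry, in 36 windows. The 250 bases before the start of C3, the member with the larger rise that had a window, and of C1qb and C1qc, abundant complement genes that did not pass the test, are printed with the matches to the motifs searched in capitals. C3 is at chr17:57228137-57228386 on the minus strand, C1qb at chr4:136886201-136886450 and C1qc at chr4:136892915-136893164, both on the minus strand.
C3: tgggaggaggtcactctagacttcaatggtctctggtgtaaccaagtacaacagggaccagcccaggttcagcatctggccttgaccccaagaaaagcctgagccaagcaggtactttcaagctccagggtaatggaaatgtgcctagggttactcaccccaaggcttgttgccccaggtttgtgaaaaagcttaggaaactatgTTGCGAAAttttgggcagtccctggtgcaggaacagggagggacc
C1qb: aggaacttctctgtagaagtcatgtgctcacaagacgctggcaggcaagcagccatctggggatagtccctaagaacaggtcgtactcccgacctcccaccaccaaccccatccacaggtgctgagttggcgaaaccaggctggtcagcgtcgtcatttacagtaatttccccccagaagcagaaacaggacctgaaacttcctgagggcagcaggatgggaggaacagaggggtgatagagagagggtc
C1qc: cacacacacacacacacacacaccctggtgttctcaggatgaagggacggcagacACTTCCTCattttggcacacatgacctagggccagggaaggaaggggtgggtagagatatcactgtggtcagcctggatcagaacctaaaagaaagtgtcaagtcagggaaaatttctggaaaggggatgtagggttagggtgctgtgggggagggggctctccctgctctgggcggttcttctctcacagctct

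The capitals in C3 mark TTGCGAAA, a match to the C/EBP letters TTGCNNAA from 45 to 38 bases before the start, and those in C1qc mark the PU.1 letters GAGGAAGT on the opposite strand from 195 to 188 bases before the start. Both strands were searched. The C/EBP letters were in 7 of the 36 member windows, those of C3, Cd68, Fcgr3, P2ry12, Siglech and Spp1, and in 9.56% of all 32851 windows, and the PU.1 letters were in 2 (C1qc and Spp1) and in 2.44% of all. The AP-1 letters TGANTCA were in 4 member windows (6.75% of all), those of STAT, TTCNNNGAA, in 2 (7.02%), and those of the interferon-stimulated response element in 3 (2.98%). C1qb held a match to none of these motifs, which says only that these letters are not in its window.

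The receptors and identity genes of homeostatic microglia were present in every mouse, and their summed level was 234 to 294 CPM in the controls and 219 to 262 CPM in the mutators. None of the 10 passed the test at an adjusted p-value under 0.05. Their log2 fold change was below 0 for 9, with a median of -0.136, and 3 (Cx3cr1, Csf1r and Aif1) had an unadjusted p-value under 0.05. Without control 246 the median was -0.134. These genes were highest in control 237, the WT/D257A mouse. Their median log2 difference from the control mean was 0.18 there, against 0.023 in control 246. With each mouse left out, the log2 fold change ranged from -0.26 to -0.14 for Cx3cr1, from -0.22 to -0.10 for Csf1r and from -0.34 to -0.22 for Aif1.

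Cx3cr1, the fractalkine receptor that microglia use to sense neurons, was at 46.4, 52.2, 41.1 and 46.0 CPM in control mice 205, 237, 239 and 246 and between 37.5 and 44.3 CPM in the mutators, with a median of 40.5. The mutators lay low and within a narrow span, and 3 of them (211, 217 and 236) were above the lowest control. This came to a log2 fold change of -0.20 (SE 0.061, 95% confidence interval -0.33 to -0.075, edgeR adjusted p = 0.10). Csf1r, the receptor for the growth factors Csf1 and Il34, was at 88.1, 107, 82.8 and 98.3 CPM in those controls and between 76.8 and 88.2 CPM in the mutators (median 85.6). Its log2 fold change was -0.17 (SE 0.061, adjusted p = 0.18), and 871 of its exonic bases overlap those of Hmgxb3 on the other strand, from which an unstranded library cannot separate it. Aif1, the calcium-binding protein known as Iba1, was at 4.11, 4.93, 3.91 and 3.96 CPM in the controls and between 2.69 and 4.11 CPM in the mutators (median 3.41). In 5 of the mutators it was under the lowest control, and the log2 fold change was -0.30 (SE 0.13, adjusted p = 0.25).

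The nucleotide receptor P2ry12, which guides microglial processes to injury, was at 36.0, 39.7, 32.1 and 31.5 CPM in control mice 205, 237, 239 and 246 and between 29.3 and 37.7 CPM in the mutators (median 33.4). Its groups overlapped nearly throughout, with a log2 fold change of -0.041 (95% confidence interval -0.19 to 0.11). Tmem119, a membrane protein used to tell microglia from blood macrophages, was at 19.1, 19.5, 15.5 and 19.98 CPM in the controls and between 14.6 and 19.9 CPM in the mutators (median 16.8), with a log2 fold change of -0.088 (-0.26 to 0.088). P2ry13, a second ADP receptor, was low in mutator 249 at 7.29 CPM, against 10.7 to 12.3 CPM in the other mutators and 11.4 to 13.8 CPM in the controls. The other 4 were Siglech (a sialic acid binding lectin), Olfml3 (a secreted matrix protein), Gpr34 (a lysophospholipid receptor) and Irf8 (a transcription factor of the myeloid lineage), with log2 fold changes between -0.138 and 0.0085.

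Among the ligands of these receptors, a list of 8 genes, many of them made by neurons, 1 was called as lower and 0 as higher. The fractalkine gene Cx3cl1 fell from 586 ± 34 to 493 ± 42 CPM (SD, n = 4 and 7), with a log2 fold change of -0.25 (SE 0.059, edgeR adjusted p = 0.040). In control mice 205, 237, 239 and 246 it was at 538, 617, 589 and 601 CPM, and the mutators ranged from 427 to 563 CPM, with 249 within the range of the controls and 6 below it. The call was kept in 11 of 19 alternatives. It was lost without control 246 (-0.24, adjusted p = 0.14), control 237 (0.20) or control 239 (0.099), without mutators 211, 217, 240 or 248 (0.053 to 0.091) and with exon bin sums (0.21). Il34, a ligand of Csf1r, had a log2 fold change of -0.21 (SE 0.058, adjusted p = 0.078), and Cd200, which restrains myeloid cells, had one of 0.19 (0.060, 0.12).

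A list of 27 further microglia genes tested gave 0 calls and a median log2 fold change of -0.070, with 21 below 0 and 5 of them at an unadjusted p-value under 0.05. The 3 with the smallest p-values were Csf2ra, a subunit of the GM-CSF receptor (log2 fold change -0.25, adjusted p = 0.10), the fructose transporter Slc2a5 (-0.40, 0.14) and the organic anion transporter Slco2b1 (-0.23, 0.17). Their summed level was 430 to 493 CPM in the controls and 399 to 468 CPM in the mutators. Without control 246 the median of this list was -0.027 and 0 were called.

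**Figure D4:**
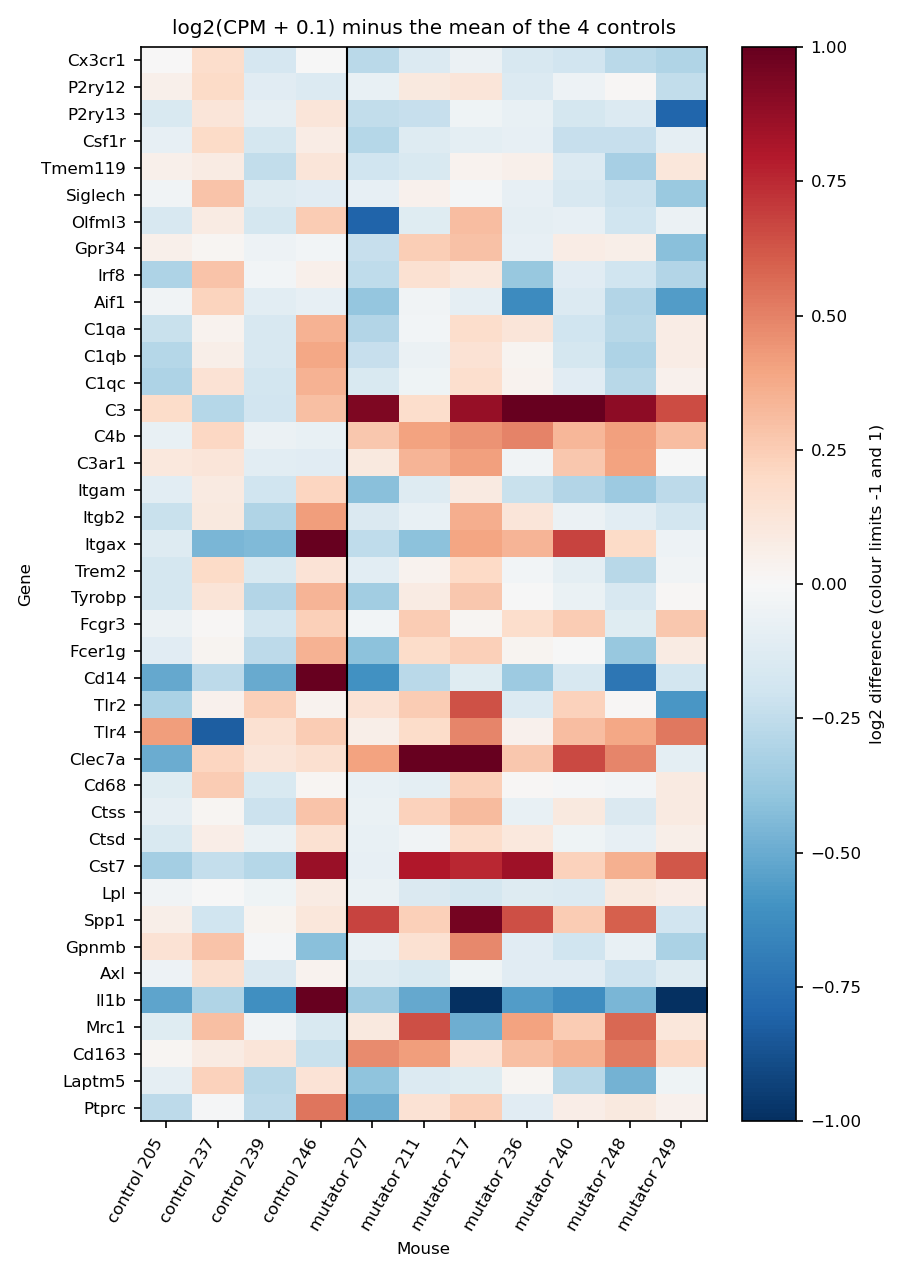
Colours give the difference of log2(CPM + 0.1) from the mean of the 4 controls for each tested member and mouse, limited to -1 and 1. C3 and C4b are higher in the mutators, control 246 stands out for Il1b, Cd14, Itgax and Cst7, and mutator 217 is the highest of all mice for 10 members.

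Integrins come next, as the receptors that take up material carrying C3 fragments. Itgam, the alpha chain of complement receptor CR3 and also known as CD11b, was at 28.2, 32.4, 26.5 and 35.2 CPM in control mice 205, 237, 239 and 246 and between 22.7 and 32.4 CPM in the mutators (median 25.3). Mutators 217 and 211 were within the range of the controls and the other 5 were below it. In log2 fold change the difference was -0.22 (SE 0.091, edgeR adjusted p = 0.23), and -0.15 without control 246. Itgb2, the shared beta chain, had a log2 fold change of -0.0077 (95% confidence interval -0.28 to 0.26). The median over the 3 integrins was -0.0077 with all mice and 0.138 without control 246. Itgax, known as CD11c and raised in activated microglia and dendritic cells, was at 0.401, 0.299 and 0.304 CPM in control mice 205, 237 and 239 and at 1.02 CPM in control 246, and between 0.312 and 0.775 CPM in the mutators (median 0.527). Its log2 fold change of 0.16 (-0.54 to 0.86) became 0.61 without control 246, with an edgeR adjusted p of 0.46.

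Trem2 is a lipid-sensing receptor, Tyrobp (DAP12) and Fcer1g are adaptors with an ITAM signalling motif, and Fcgr3 is a receptor for IgG. Trem2 was at 13.4, 17.3, 13.6 and 16.6 CPM in control mice 205, 237, 239 and 246 and between 12.5 and 17.4 CPM in the mutators (median 14.8). Tyrobp was at 11.7, 14.5, 10.8 and 16.8 CPM in those controls and between 10.4 and 16.0 CPM in the mutators (median 13.2). For both, the mutators covered the range of the controls almost entirely. The log2 fold changes were -0.040 for Trem2 (95% confidence interval -0.22 to 0.14) and -0.028 for Tyrobp (-0.28 to 0.22), and 0.0032 and 0.086 without control 246. Fcgr3 and Fcer1g had 0.12 and -0.029, and 0 of the 4 passed the test. The median over these 4 was -0.029 with all mice and 0.088 without control 246.

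Of the 14 genes of Trem and related receptors listed beside them, 7 were tested and 1 was called. Treml2, a receptor of myeloid and B cells, was at 0.286, 0.414, 0.320 and 0.218 CPM in control mice 205, 237, 239 and 246 and between 0.553 and 1.01 CPM in the mutators (median 0.740). All mutators were above all controls, on 6 to 35 counts per control mouse and 23 to 69 per mutator. It rose by a log2 fold change of 1.33 (SE 0.26, edgeR adjusted p = 0.012) and was called in 19 of 19 alternatives, with an adjusted p-value up to 0.050.

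The pattern recognition members were Cd14 (a co-receptor for bacterial lipopolysaccharide), Tlr2 and Tlr4 (Toll-like receptors for microbial lipids and lipopolysaccharide) and Clec7a (dectin-1, a receptor for beta-glucan). Clec7a was at 0.425, 0.760, 0.705 and 0.727 CPM in control mice 205, 237, 239 and 246 and between 0.592 and 1.75 CPM in the mutators (median 0.936). Mutators 217 (1.75 CPM) and 211 (1.68 CPM) were far above the others, 249 was inside the range of the controls, and the remaining 4 were above it at 0.794 to 1.07 CPM. This came to a log2 fold change of 0.79 (SE 0.28, edgeR adjusted p = 0.17), and over the alternatives the adjusted p-value lay between 0.10 and 0.46. Cd14 was at 1.98, 2.37 and 1.99 CPM in control mice 205, 237 and 239 and at 7.05 CPM in control 246, and between 1.69 and 2.62 CPM in the mutators. Its log2 fold change was -0.51 (SE 0.33, adjusted p = 0.50) with control 246 and 0.092 without it. Tlr2 had a log2 fold change of 0.13 and Tlr4 one of 0.22.

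In the list of 28 tested genes of Fc and Toll-like receptor signalling, 0 were called and the median log2 fold change was -0.030. The endosomal RNA sensor Tlr7 (0.43, adjusted p = 0.11), Tlr13, which senses bacterial ribosomal RNA (0.35, 0.17), and Tlr3, the sensor of double-stranded RNA (-0.17, 0.27), had unadjusted p-values under 0.05.

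**Figure D5:**
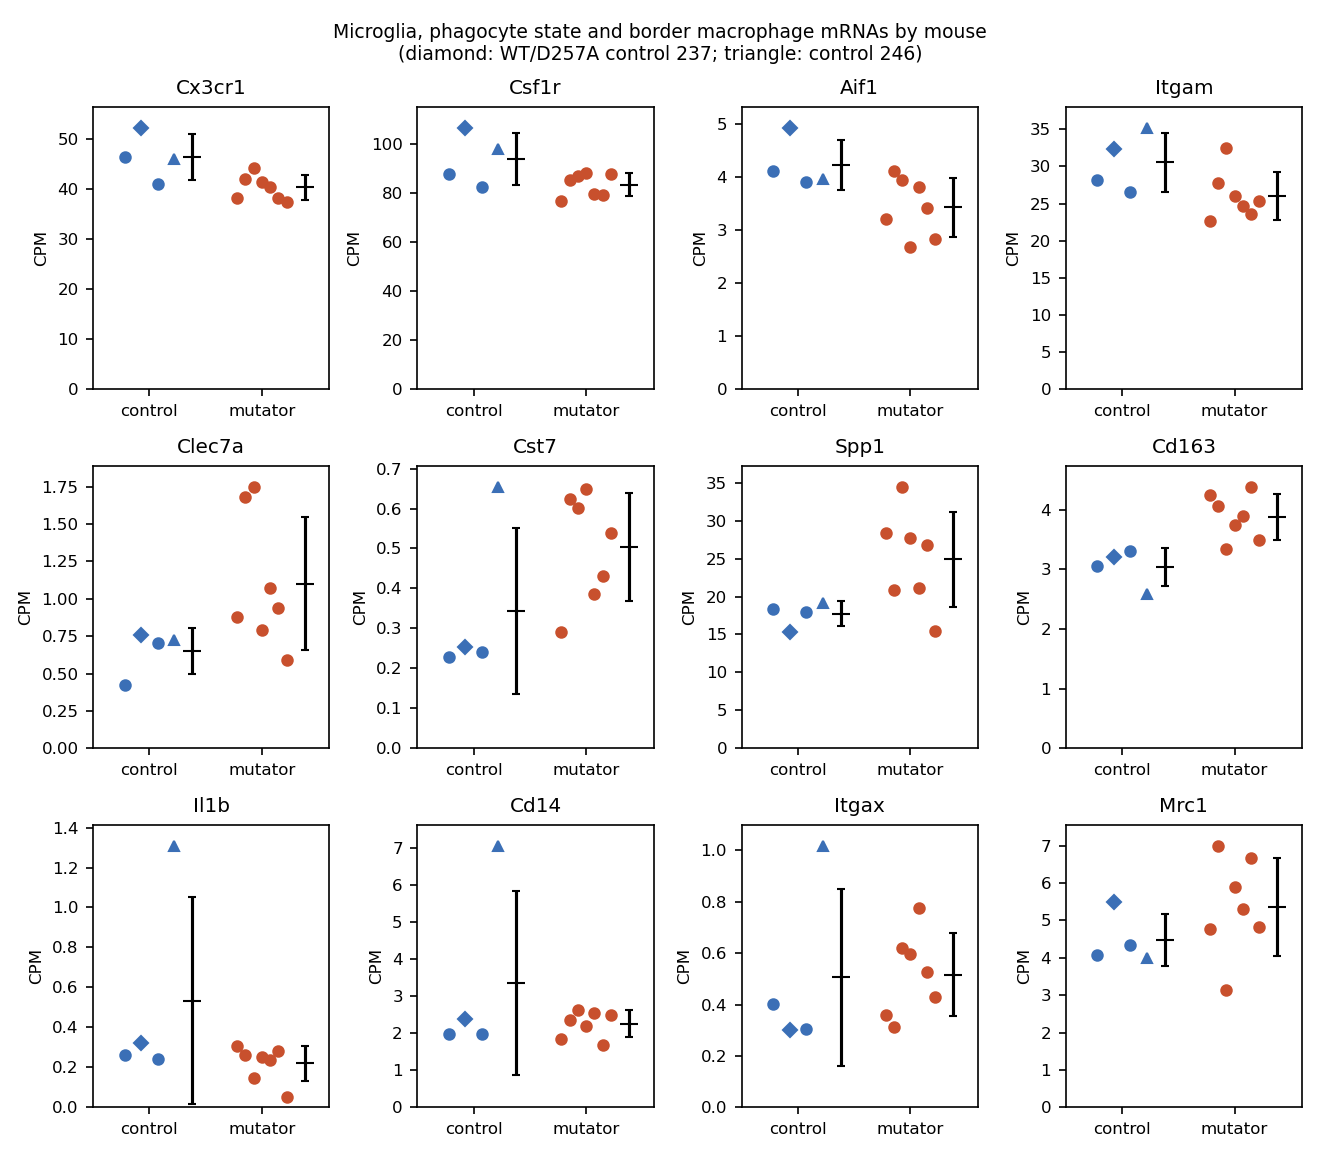
Each point is the level of 1 mRNA in 1 mouse, in CPM from 0, with the group mean and SD as a black bar. Control 246 (triangle) is far from the other controls for Il1b, Cd14, Itgax and Cst7, while the 7 mutators of Cd163, at 3.33 to 4.38 CPM, lie above all controls.

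The lysosomal members included the most abundant of these mRNAs per length. Ctsd (cathepsin D, an aspartic protease) was at 136 CPM per kilobase of exon in the controls and Ctss (cathepsin S, a cysteine protease of phagocytes) at 56.2, the highest values among the members on that scale, ahead of C1qb at 43.3, C1qa at 37.1 and Tyrobp at 23.9. C3 at 0.271, Tlr4 at 0.263 and Itgax at 0.125 CPM per kilobase were the lowest of those tested. Ctss was at 71.1, 76.7, 65.2 and 92.4 CPM in control mice 205, 237, 239 and 246 and between 68.6 and 94.3 CPM in the mutators (median 80.5). The glycoprotein Cd68 was at 7.84, 10.2, 7.67 and 8.68 CPM in those controls and between 7.98 and 10.1 CPM in the mutators (median 8.49). Groups overlapped for each of the lysosomal genes. Their log2 fold changes were 0.014 for Ctsd (95% confidence interval -0.11 to 0.14), 0.064 for Ctss (-0.16 to 0.29) and 0.018 for Cd68 (-0.17 to 0.21), the narrowest being that of Ctsd.

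Of the phagocyte state genes, 0 of 5 passed the test. Spp1 (osteopontin, a secreted phosphoprotein) was at 18.4, 15.3, 18.0 and 19.1 CPM in control mice 205, 237, 239 and 246 and between 15.4 and 34.4 CPM in the mutators (median 26.7). Mutator 217 was the highest and mutator 249, at 15.4 CPM, was as low as the lowest control, with the other 6 above every control. The log2 fold change was 0.50 (SE 0.19, edgeR adjusted p = 0.25). Cst7 (cystatin F, an inhibitor of lysosomal cathepsins) was at 0.229, 0.253 and 0.240 CPM in control mice 205, 237 and 239, at 0.654 CPM in control 246, and between 0.292 and 0.650 CPM in the mutators (median 0.538). Every mutator was above 3 of the controls and below control 246. Its log2 fold change was 0.67 (SE 0.33, adjusted p = 0.34) and became 1.05 without control 246 (0.19), on 11 to 40 counts per mouse. Axl (a receptor that binds dying cells through Gas6) was at 53.6, 62.0, 50.3 and 57.0 CPM in the controls and between 48.1 and 54.0 CPM in the mutators, a log2 fold change of -0.13 (SE 0.054, adjusted p = 0.25). Lpl (lipoprotein lipase) and Gpnmb (a glycoprotein of lysosomal stress) had log2 fold changes of -0.064 and -0.039.

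In the list of other phagocyte state genes, 29 were tested, 1 was called as higher and 0 as lower, with a median log2 fold change of 0.072. Lgals3bp, a secreted galectin-binding glycoprotein induced by interferon, was at 15.2, 18.3, 16.1 and 18.5 CPM in control mice 205, 237, 239 and 246 and between 20.8 and 27.8 CPM in the mutators, which all lay above the controls. It rose by a log2 fold change of 0.48 (SE 0.084, edgeR adjusted p = 0.0057) and was called in 19 of 19 alternatives. Without control 246, 2 of 30 were called as higher, Lgals3bp and the cholesterol 25-hydroxylase Ch25h, and the median was 0.14. Before adjustment, 6 of the 29 were higher and 3 were lower, among them the chemokine Ccl3 (1.00, adjusted p = 0.19), the lysozyme Lyz2 (0.57, 0.31) and the lipid carrier Apoe (-0.14, 0.27).

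Il1b and Tnf, the cytokine members, were close to the limit of counting. Tnf had 0 to 3 counts per mouse, and 3 counts correspond to 0.0245 to 0.109 CPM, so a difference was not detectable at this depth. Il1b was at 0.262, 0.322 and 0.240 CPM in control mice 205, 237 and 239, at 1.31 CPM in control 246, and between 0.0538 and 0.306 CPM in the mutators (median 0.253), on 2 to 36 counts per mouse. Its log2 fold change was -1.03 (SE 0.45, edgeR adjusted p = 0.27) and was -0.25 (adjusted p = 0.84) without control 246. Of the 20 tested genes of the list of inflammatory cytokines and NF-kappaB, 1 was called: Nos2, the inducible nitric oxide synthase, fell from 0.716 ± 0.311 to 0.170 ± 0.127 CPM (log2 fold change -1.98, SE 0.45, adjusted p = 0.038). All mutators were below all controls, at 0 to 0.372 against 0.483 to 1.16 CPM, of which the highest was control 246. The call was lost with any 1 of the controls left out, with adjusted p-values of 0.053 without control 205, 0.10 without 237, 0.065 without 239 and 0.13 without 246 (log2 fold change -1.71), and also without mutators 211, 236 or 248 (0.065 to 0.070) and with exon bin sums (0.18). Without control 246, the 1 call in this list was the adhesion molecule Icam1, as higher (0.88, adjusted p = 0.031, against 0.35 and 0.66 with all mice).

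Mrc1 and Cd163 are scavenger receptors of the macrophages at the borders of the brain, around vessels and in the meninges. Cd163 was at 3.06, 3.20, 3.30 and 2.58 CPM in control mice 205, 237, 239 and 246 and between 3.33 and 4.38 CPM in the mutators (median 3.89). The groups did not overlap, with mutator 217 at 3.33 CPM just above control 239 at 3.30 CPM. The log2 fold change was 0.35 (SE 0.11, 95% confidence interval 0.11 to 0.59, edgeR adjusted p = 0.13), and the adjusted p-value lay between 0.053 and 0.34 over the alternatives. Mrc1 was at 4.07, 5.50, 4.34 and 4.00 CPM in the controls and between 3.13 and 6.99 CPM in the mutators (median 5.30), with a log2 fold change of 0.26 (SE 0.17, adjusted p = 0.48). Mutator 217, the highest mouse for 10 other members, was the lowest for Mrc1.

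Of 16 further border macrophage genes, 0 were called, with a median log2 fold change of 0.19. The 3 with the smallest p-values were F13a1, a coagulation factor subunit of these macrophages (0.55, adjusted p = 0.067), the hyaluronan receptor Lyve1 (1.19, 0.068) and the lectin Cd209a (-0.80, 0.093). Without control 246, F13a1 was called as higher (0.68, adjusted p = 0.039) and the median of the list was 0.29. The summed level of the list was 73.0 to 84.5 CPM in the controls and 76.8 to 90.4 CPM in the mutators.

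Of the pan-leukocyte members, Laptm5, a lysosomal membrane protein, was at 34.9, 43.7, 30.8 and 40.9 CPM in control mice 205, 237, 239 and 246 and between 26.7 and 37.7 CPM in the mutators (median 33.8), with a log2 fold change of -0.21 (SE 0.11, edgeR adjusted p = 0.38). Ptprc, which encodes CD45, was at 4.49, 5.34, 4.49 and 7.88 CPM in the controls and between 3.81 and 6.37 CPM in the mutators, with a 95% confidence interval of -0.31 to 0.31. The median log2 fold change of the 2 pan-leukocyte members was -0.10 with all mice and 0.016 without control 246.

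Markers of blood cells were counted beside these genes, since Il1b, Cd14, Itgax, Itgam, Cd163, C3 and Ptprc are also made by leukocytes. Of 18 markers of monocytes and neutrophils, 12 were tested, 0 were called and the median log2 fold change was 0.64. Without control 246, 4 of 13 were called as higher, and the median was 3.18. Over all genes, that fit called 50 of 18328 as higher. The neutrophil protein S100a9 was at 0.230 to 0.288 CPM in control mice 205, 237 and 239, at 7.52 CPM in control 246, and between 1.17 and 3.73 CPM in the mutators, and Lcn2, which neutrophils and reactive astrocytes make, was at 0.0320 to 0.161, 12.2 and 1.16 to 3.97 CPM. Mpo (log2 fold change 1.65, adjusted p = 0.078) and Ltf (2.14, 0.27), of neutrophil granules, had unadjusted p-values under 0.05 with all mice, and the defining neutrophil gene Ly6g had 0 to 6 counts per mouse. The part of such cells in the levels of the members was not tested.

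In the other marker lists, 2 of 8 tested platelet genes were called as higher (Ppbp at 3.83 and Tubb1 at 5.08 on the log2 scale), 1 of 5 of B and plasma cells as lower (Igk-C at -1.89), and 0 of 2 of T and NK cells and 0 of 5 of red cells. The median log2 fold change of the red cell genes was 0.64, and 1.17 without control 246, when 0 of 6 were called. Tubb1 had 0 to 1 counts per control mouse, and its fitted value depends on the prior count. Summed levels in controls and mutators were 5.0 to 7.4 and 6.2 to 11.0 CPM for platelets, 29.0 to 38.7 and 17.9 to 26.5 CPM for B and plasma cells, and 57.6 to 198 and 90.0 to 257.4 CPM for red cells. Most of the B and plasma cell sum came from 1 gene, Igh-6, at 27.2 to 36.3 CPM in the controls and 16.7 to 25.2 CPM in the mutators. Of the 5 B and plasma cell genes tested, 2 had a log2 fold change above 0 and 3 below 0. Of the cells of the brain, 1 of 10 oligodendrocyte genes was called as lower, Opalin, a myelin membrane protein (-0.81, edgeR adjusted p = 0.038), and the median of that list was -0.165, with 7 of 10 below 0 and 5 at an unadjusted p-value under 0.05. Opalin was called in 6 of 19 alternatives and in none that left out a control (adjusted p = 0.10 without control 246, 0.053 to 0.17 without the others). Among 10 astrocyte, 8 neuron and 10 endothelial genes, 0 were called, with medians of -0.017, -0.042 and 0.041. Those with the smallest unadjusted p-values under 0.05 were, for astrocytes, the connexin Gjb6 (0.26, adjusted p = 0.080), the glutamate transporter Slc1a2 (-0.13, 0.14) and the filament gene Gfap (0.22, 0.23), for neurons the vesicular glutamate transporter Slc17a7 (-0.21, 0.10), and for endothelium the VEGF receptors Flt1 (0.36, 0.062) and Kdr (0.84, 0.071) and the receptor Tie1 (-0.29, 0.14). The part of astrocytes in the levels of C3 and C4b was not tested.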

How the data were processed

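Cerebral poly(A) RNA of 11 mice was made into unstranded TruSeq libraries and sequenced as paired reads of 100 bases. Per the labels and the methods of the study, the authors used CASAVA 1.7.1, TopHat2 2.0.6 and Bowtie2 2.0.2.0 for mm9 alignments and HTSeq 0.5.3p9 for counting. The deposited values are raw counts per gene for all mice, and raw counts per exon bin for 10 of them, without the WT/D257A mouse. Reads in no bin, 20.6% to 23.4%, were left out. The authors' tables of comparisons hold fold changes and p-values from DESeq 1.14.0 and DEXSeq and were not used. The strand setting of the counting is not given in the sources used here.

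In R 4.3.3, the 7 mutators were compared with the 4 controls by edgeR 4.0.16, with filterByExpr and TMM scaling before a robust quasi-likelihood test without covariates on the gene counts, with Benjamini-Hochberg adjustment over all genes tested. CPM use TMM factors, which ranged from 0.974 to 1.02. Exon usage was tested with voom and diffSplice of limma 3.58.1. The alternatives used DESeq2 1.42.0, other scalings and filters, log2 library size or 1 surrogate variable (sva 3.50.0) as a covariate, exon bin sums, and leaving out each mouse. Standard errors are the absolute log2 fold change over the square root of the quasi-likelihood F statistic. That test estimates the spread between mice with information shared over all genes tested. Intervals are 95% confidence intervals of the log2 fold change between the groups, computed from these standard errors. No 2 libraries agreed within sampling noise. Coordinates of genes are those of GENCODE vM1 on mm9, and C4b was aligned to the C4a locus there.

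The members and lists were chosen with earlier results of these data known. Of the 274 genes of the other lists, 268 were in the table and 226 were tested, and a few (Spi1 and Trac among them) were not analysed here. All members may be named, with full statistics for those with an unadjusted p-value under 0.05 and a fixed set of marker genes; of each other list, the called genes, or else up to 3 with the smallest p-values under 0.05. Il34, Cd200, Ccl3, Lyz2, Apoe, S100a9, Lcn2, C4a, Ly6g, Icam1, Ch25h and Igh-6 were named after their values were seen.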

Additional observations from a re-analysis of the deposited data

Results flagged for a closer look

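The groups of 4 or 7 mice were examined for the members tested and the genes called in the other lists, 96 groups in all. Other named genes, S100a9, Lcn2 and Ch25h among them, were not examined in this way. Of the 96 groups, 9 held a mouse whose gap to its nearest neighbour was large for the range of its group. By chance about 1 in 20, or 4.8, would be flagged, and 7 of the 9 were members. Control 246 was the mouse concerned in 5 of the 9. It was highest for Cst7 (gap 0.943 of the range, 0.654 CPM against 0.229 to 0.253), Il1b (0.923, 1.31 CPM against 0.240 to 0.322), Cd14 (0.923, 7.05 CPM against 1.98 to 2.37), Itgax (0.859, 1.02 CPM against 0.299 to 0.401) and the platelet chemokine Ppbp (0.949, 0.182 CPM against 0.0160 to 0.0245, which is 5 counts against 1 to 3). The same mouse had the highest summed level of monocyte and neutrophil markers. The part of these cells in the values was not tested.

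The WT/D257A control 237 was the highest control for C4b (0.961, 65.0 CPM against 53.6 to 54.0) and for Opalin (0.872, 23.7 CPM against 22.5 to 22.7). For C4b it was thus between the WT/WT controls and the lowest mutator at 67.8 CPM, and as 1 heterozygous mouse was sequenced, its genotype and other differences between mice cannot be told apart. Control 205 was the lowest control for Clec7a (0.836, 0.425 CPM against 0.705 to 0.760), and mutator 249 the lowest mutator for P2ry13 (0.682, 7.29 CPM against 10.7 to 12.3).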

How the results depend on the processing

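The number of members called was 2 in the fit as reported, 1 with sums of exon bin counts and from 1 to 2 with each mouse left out, the lower value without control 237 or control 239. The other lists held 8 calls, 19 with DESeq2, 2 with exon bin sums and from 5 to 15 with each mouse left out (5 without control 237, control 239 or mutator 211, and 15 without mutator 217). Over all genes, 223 calls became 615 with DESeq2, 346 with no filter, 42 with exon bin sums, and from 50 (without control 237) to 412 (without control 205) with each mouse left out. C3 was not called without control 237 (0.79) or control 239 (0.80) or with exon bin sums (0.59). Signs turned among members that did not pass the test. With exon bin sums they were 0.00052 for P2ry12, -0.093 for Itgax, 0.037 for Trem2 and 0.016 for Tyrobp. With each mouse left out they ranged from -0.083 to 0.027 for P2ry12, -0.14 to 0.065 for C1qa, -0.18 to 0.056 for C1qb, -0.16 to 0.063 for C1qc, -0.023 to 0.61 for Itgax, -0.10 to 0.030 for Trem2, -0.12 to 0.086 for Tyrobp, -0.034 to 0.11 for Cd68 and -0.0043 to 0.17 for Ctss. Il1b was at -0.40 with DESeq2, and the cytokine median with Tnf included was -0.23 with no filter. The causes were not tested. Fold changes under an alternative were judged by their sign and side of the threshold. Counts of calls were judged by their ratio to the reported count, and medians by the spread among the mutators. Of the values recomputed, 662 stayed the same by these rules, 19 fold changes changed sign and 3 lost their call. The other 12, which were counts of calls or medians, moved. The member exon bins that were tested had 0 calls in each alternative. No paired analysis was run, since the sources used here do not give the litter of each mouse. Members near 1 CPM and below, such as Il1b, Cst7, Itgax and Clec7a, rest on 2 to 96 counts per mouse, which limits them.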
